A study of Mus musculus with 81 samples.

Results

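The comparison described here is that of CA1 tissue depleted of mH2A1 with its scramble control, 2 weeks after injection of virus and without training. Its members are 6 RNA-seq libraries of the 81 samples of the series, 3 from shH2afy mice and 3 from shScramble mice, taken by their labels. All mice were male C57BL/6J of about 9 to 12 weeks. Both groups received an AAV of serotype DJ into dorsal CA1 of both hemispheres, in which the U6 promoter drove a short hairpin RNA and the CMV promoter drove GFP. The hairpin was directed at H2afy in the shH2afy group and was a scramble sequence in the shScramble group. Neither promoter restricts the vector to neurons, and the infected tissue was dissected and not sorted. Which cell types carried the vector was not measured here. The other samples of the series are libraries of mH2A2 depletion, of fear conditioning and of mH2A1 and mH2A2 chromatin. Of these, 6 untrained libraries of the training experiment and 8 mH2A1 ChIP libraries of untrained mice were set beside the comparison.

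mH2A1 is a variant of histone H2A with a large globular domain, and it is known for its presence over silent genes and over large repressed domains. Area CA1 is a thin sheet of pyramidal neurons with scattered inhibitory interneurons, astrocytes, oligodendrocytes, microglia and vessels. Microglia are its resident phagocytes, and lymphocytes are rare in healthy brain tissue. Interferons are secreted when a cell detects foreign or misplaced nucleic acid, and they switch on a shared set of antiviral and antigen-presenting genes through STAT and IRF transcription factors.

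Total counts assigned to genes ranged from 9954415 to 16988596 per shScramble library and from 13429342 to 15944974 per shH2afy library. H2afy itself measured 59.7, 57.8 and 52.8 CPM (counts scaled to a common library size, with TMM factors) in shScramble replicates 1 to 3, and 44.9, 46.8 and 40.4 in shH2afy replicates 1 to 3. The groups did not overlap, and the log2 fold change was -0.37 (SE 0.10, edgeR adjusted p = 0.031), so that the targeted transcript was lower in every shH2afy library and did not pass the threshold of 0.01. H2afy2, which encodes mH2A2, had a log2 fold change of -0.25 (SE 0.12, adjusted p = 0.16). The share of mitochondrial counts was 3.87 to 6.25% in shScramble and 2.71 to 3.38% in shH2afy libraries. Along the first principal component, which held 79.1% of the variance of log2 CPM, the shH2afy libraries lay at 84.1, 85.7 and 43.6 and the shScramble libraries between -78.2 and -65.1. Replicate 3 of shH2afy thus lay nearest to the controls.

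Of 16179 genes tested, 1885 (11.7%) were called, which here means an adjusted p below 0.01 together with a change of more than 2-fold, and of these 1691 were higher and 194 lower in shH2afy mice. At an unadjusted p under 0.05 there were 7103. Leaving out a library left fewer mice for the test and changed this count. It was 947 without shH2afy replicate 1 and 1256 without replicate 2, it rose to 2364 without replicate 3, and it was 1247, 1091 and 1083 without shScramble replicates 1, 2 and 3. Genes were then grouped in 63 lists by cell type, signal or function. For list members no minimum fold was asked, only an adjusted p below 0.01, by which 12.6% of all genes were higher and 4.47% lower, and the median log2 fold change over all genes was 0.01. In these bulk libraries, more cells of a type and more RNA per cell cannot be told apart, nor can fewer cells and less RNA per cell.

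Genes of immunity were the largest group to rise. Of 283 distinct immune genes tested, 229 (80.9%) were higher and 1 was lower, with a median log2 fold change of 3.71. The lists held 343 immune genes, and a gene near 0 in shScramble can pass the filter on low counts through the shH2afy libraries alone. The genes tested were thus in part chosen by their rise, and this share is a description. The number higher was 150, 157 and 169 without shScramble replicates 3, 2 and 1 and 275 without shH2afy replicate 3. Within this group the lists differed in how alike the 3 shH2afy mice were. The accounts below run from the sensing of nucleic acid to the lymphocytes and then other immune cells, and are not ordered by that likeness.

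The sensors and effectors of the antiviral response were higher in all 3 shH2afy mice. Many such genes are known to be switched on through a short DNA element, the interferon-stimulated response element, which was searched for as GAAA and GAAA separated by any 2 bases, on either strand. The 250 bases before the start of 3 antiviral genes are shown because they hold this element (RefSeq, GRCm38.p6, 5′ to 3′ on the strand of the gene). Capitals mark the element, with overlapping copies run together. Ifit3 is an antiviral effector, Isg15 is a ubiquitin-like modifier and Bst2 tethers budding virus to the cell.
Ifit3, chr19:34583279-34583528, plus strand: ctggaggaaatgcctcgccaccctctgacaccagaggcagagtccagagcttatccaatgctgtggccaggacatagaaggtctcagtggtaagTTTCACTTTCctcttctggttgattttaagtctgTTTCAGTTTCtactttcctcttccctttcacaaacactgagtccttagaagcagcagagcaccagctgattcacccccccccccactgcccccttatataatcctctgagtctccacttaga
Isg15, chr4:156200819-156201068, minus strand: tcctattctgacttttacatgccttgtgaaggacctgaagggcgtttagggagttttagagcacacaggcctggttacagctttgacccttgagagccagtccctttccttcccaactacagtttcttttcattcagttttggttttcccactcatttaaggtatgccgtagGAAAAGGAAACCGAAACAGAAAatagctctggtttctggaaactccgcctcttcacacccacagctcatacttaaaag
Bst2, chr8:71537473-71537722, minus strand: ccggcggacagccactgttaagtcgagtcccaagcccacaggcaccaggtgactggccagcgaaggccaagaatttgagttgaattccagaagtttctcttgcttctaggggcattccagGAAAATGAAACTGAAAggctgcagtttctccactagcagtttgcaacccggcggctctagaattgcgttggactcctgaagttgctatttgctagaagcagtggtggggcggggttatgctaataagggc
The element nearest to the start begins 122 bases before it in Ifit3, 66 in Isg15 and 124 in Bst2. Of all 32851 promoters in the table, 3.44% held such an element.

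Ifit3 measured 6.39, 4.45 and 5.11 CPM in shScramble replicates 1 to 3 and 182, 197 and 129 in shH2afy replicates 1 to 3. Its log2 fold change was 4.99 (SE 0.23, adjusted p = 5.62e-05). Isg15 went from 0.476, 0.989 and 1.07 CPM to 96.8, 96.3 and 59.1. The groups were far apart for both genes, with replicate 3 the lowest of the shH2afy mice. Of 24 antiviral effectors, 23 were higher and 0 lower, with a median log2 fold change of 4.79. In all 24 the groups did not overlap, against 48.8% of all genes tested. Mx2, a dynamin-like GTPase, was named for its small range, with 10.6, 11.7 and 11.6 CPM in the shH2afy mice against 0.476, 0.618 and 0.320 in the controls. Over the list, replicate 3 was nearest to the controls for 23 of 24 genes. All 13 virus sensors tested were higher, with a median of 3.26. Ifih1, the cytosolic sensor of long double-stranded RNA, went from 3.80, 3.58 and 2.98 CPM to 56.4, 54.2 and 36.5 (log2 fold change 3.81, SE 0.22, adjusted p = 9.33e-05). Zbp1, which binds left-handed nucleic acid, had a log2 fold change of 7.70, the cytosolic DNA sensor Cgas 2.14 and its partner Tmem173 3.21.

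Interferon itself was at the limit of detection, whereas its receptors and relays were measured. Ifnb1 had 0 counts in each of the 6 libraries. Ifng had 0, 1 and 1 counts in shScramble and 19, 20 and 3 in shH2afy replicates 1 to 3 and did not pass the filter on low counts. Among 16 genes of interferon reception and signalling that were tested, 14 were higher, with a median log2 fold change of 2.28. This number was 9 without shH2afy replicate 1 and 9 without any one of the shScramble libraries. The receptor genes moved little, Ifnar1 by 0.53 and Ifngr2 by 0.55 on the log2 scale, and their partners Ifnar2 and Ifngr1 by 1.40 and 2.02. Irf7, which amplifies type I interferon, went from 1.15, 0.803 and 1.49 CPM in shScramble to 143, 149 and 81.9 in shH2afy mice (log2 fold change 6.81, SE 0.34, adjusted p = 5.88e-05). Irf1, which relays interferon gamma, went from 3.80, 5.93 and 3.83 CPM to 92.7, 105 and 20.2. For both transcription factors replicate 3 was the lowest shH2afy mouse and still above every control.

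Genes that answer to interferon gamma and present antigen rose as far but less evenly. Guanylate-binding and immunity-related GTPases attack vacuoles that hold microbes. Of 16 tested, 15 were higher, with a median of 5.22, and this number was 9 without shScramble replicate 2, 8 without shScramble replicate 3 and 17 of 17 without shH2afy replicate 3. Gbp2 measured 3.40, 2.53 and 3.83 CPM in shScramble and 186, 213 and 35.4 in shH2afy mice (log2 fold change 5.49, SE 0.71, adjusted p = 0.0014). Of 16 genes of MHC class I presentation, which shows peptides from the cytosol to CD8 T cells, 15 were higher with a median of 4.26, and 9 without shScramble replicate 3. The light chain gene B2m measured 85.7, 65.7 and 67.3 CPM in shScramble and 1559, 1911 and 553 in shH2afy mice. Of 15 genes of MHC class II presentation, which shows engulfed peptides to CD4 T cells, 13 were higher with a median of 4.54. Leaving out 1 library left 8 (shH2afy replicate 1) and 6, 5 and 5 (shScramble replicates 1 to 3), while all 15 were higher without shH2afy replicate 3. Ctss, the protease that trims the class II chaperone, went from 106, 53.6 and 70.4 CPM to 1694, 2022 and 698. H2-Aa, a class II chain, reached 344, 617 and 30.4 CPM from at most 1.02 in the controls. For each gene named in these lists replicate 3 of shH2afy held less than the other two and lay above every control. Gbp and H2 genes have near-identical relatives, so how their shared reads were counted is uncertain.

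**Figure D1:**
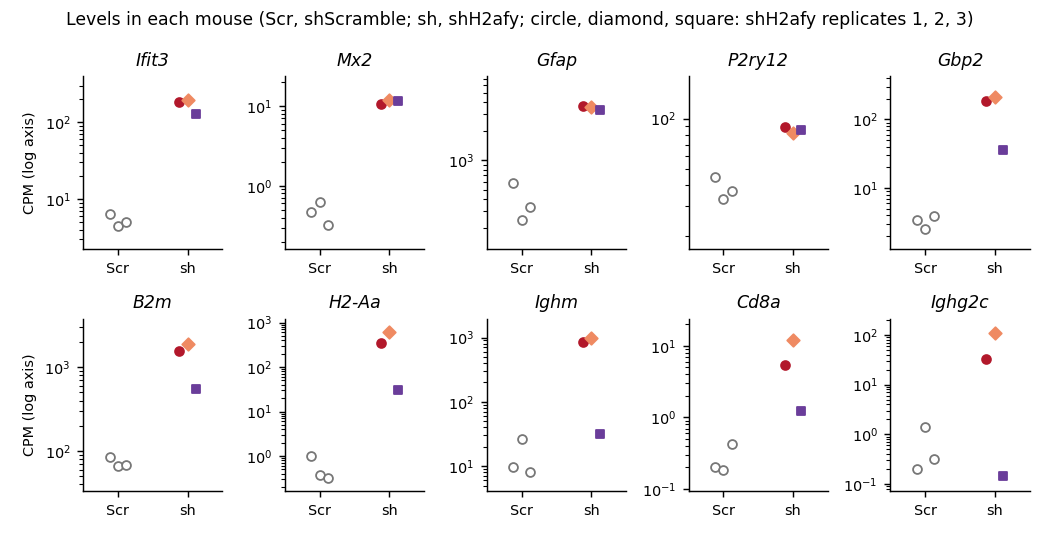
CPM of 10 immune and glial genes in each library (log axis; open circles, shScramble; filled circle, diamond and square, shH2afy replicates 1, 2 and 3). Mx2, Gfap and P2ry12 were chosen for a small range over the shH2afy mice and Ighg2c for a large one. Gbp2, B2m, H2-Aa, Ighm, Cd8a and Ighg2c were lowest in replicate 3, where Ighg2c lay at 0.143 CPM, below every shScramble library.

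Complement, chemokine and cytokine genes were also higher. Complement proteins tag targets for uptake, and 14 of 18 genes tested were higher with a median of 4.21. C3, the hub of the cascade, measured 3.74, 0.371 and 0.852 CPM in shScramble and 367, 414 and 172 in shH2afy mice (log2 fold change 7.54, SE 0.74, adjusted p = 0.000494). Of 24 chemokine ligands tested, 15 were higher, 1 was lower and the median was 4.26. The number higher was 10 without shH2afy replicate 1. Ccl12, which attracts monocytes, went from 0.340, 0.247 and 0.213 CPM to 21.8, 26.5 and 16.2, with little spread among the mice. Ccl5, which attracts T cells, reached 82.5, 102 and 15.7 CPM from at most 0.136 in the controls. The gene that fell was Cx3cl1, the neuronal ligand of the microglial receptor Cx3cr1. It measured 860, 775 and 692 CPM in shScramble and 420, 532 and 468 in shH2afy mice (log2 fold change -0.71, SE 0.15, adjusted p = 0.00908), a call that was lost without any single library. Cx3cr1 itself went the other way, from 65.0, 43.4 and 54.2 CPM to 310, 335 and 236. In all, 7 of 9 chemokine receptor genes tested were higher with a median of 2.81, and 3 or 4 without any one library other than shH2afy replicate 3.

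Of 26 cytokines and cytokine receptors tested, 22 were higher and 0 lower, with a median of 3.10, and 13 were higher without shScramble replicate 3. Il1b, an inflammatory cytokine, went from 0.0679, 0.371 and 0.107 CPM to 9.92, 10.8 and 2.99. Il1rn, the natural antagonist of interleukin 1, reached 8.39, 10.6 and 2.28 CPM from a single count in the controls. Il6 did not pass the filter, with 1 to 3 counts in each shScramble library and 4, 11 and 6 in the shH2afy libraries. Of 14 Toll-like receptor and inflammasome genes, 13 were higher with a median of 3.19, and 9 without shScramble replicate 2. Tlr2, a receptor of bacterial lipoproteins, went from 2.51, 0.680 and 0.746 CPM to 60.4, 92.6 and 32.2, and the inflammasome adaptor Pycard from 2.79, 1.67 and 2.34 to 27.0, 26.6 and 19.0.

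Transcripts of lymphocytes divided the shH2afy mice. Of 19 T cell genes, 11 passed the filter on low counts and 3 of these were higher. Since the filter can be passed through the shH2afy libraries alone, the tested members of this list and of the NK and B cell lists were in part chosen by their rise, and their counts are a description. Cd8a, the coreceptor of cytotoxic T cells, measured 0.204, 0.185 and 0.426 CPM in shScramble and 5.38, 12.1 and 1.21 in shH2afy mice (log2 fold change 4.58, SE 0.93, adjusted p = 0.00865). Cd3d, a chain of the T cell receptor complex, was left out by the filter, with 0 counts in every shScramble library and 68, 146 and 9 counts in shH2afy replicates 1, 2 and 3. Both genes were detected in each shH2afy mouse, with replicate 3 lowest by far. One control stood apart in this list. The summed level of the tested T cell genes was 4.42, 6.67 and 27.4 CPM in shScramble and 80.8, 122 and 16.2 in shH2afy replicates 1 to 3, so that shScramble replicate 3 lay above shH2afy replicate 3. Most of it was Cd4, a gene that microglia can also express, with 0.0679, 0.247 and 18.9 CPM in shScramble and 12.9, 16.7 and 1.71 in shH2afy replicates 1 to 3. The number of T cell genes higher was 15 of 19 without shH2afy replicate 3 and 0 without any other single library. Granzyme B (Gzmb), a killer protease of NK and cytotoxic T cells, had 0 counts in the controls and 91, 101 and 7 in shH2afy replicates 1 to 3. Of 11 genes of NK and cytotoxic cells, 4 passed the filter and 2 of these were higher, from a summed level of 0.495 to 1.28 CPM in the controls. Without shH2afy replicate 3 there were 10 of 11, without shH2afy replicate 1 or any shScramble library 0.

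Immunoglobulin transcripts gave the widest contrast between mice. The light chain gene Igkc had 0, 2 and 1 counts in shScramble, 6608 and 11227 in shH2afy replicates 1 and 2, and 3 in replicate 3. Jchain, which joins secreted antibodies of plasma cells, had 4, 2 and 3 counts in shScramble and 1731, 3163 and 2 in shH2afy mice. Replicate 3 thus held no more than 3 counts of either, and neither gene passed the filter, which asks for expression in 3 libraries. Ighg2c measured 32.9 and 106 CPM in shH2afy replicates 1 and 2 and 0.143 in replicate 3, against 0.204, 1.42 and 0.320 in shScramble, the largest range of any gene outside the lists with a mean of at least 5 CPM. Ighm, the heavy chain of naive B cells, was raised in each mouse with 840, 988 and 31.9 CPM against 9.78, 26.8 and 8.10 (log2 fold change 5.36, SE 1.20). It did not pass in edgeR (adjusted p = 0.0129) and did in DESeq2 (adjusted p = 8.79e-05). Cd22, a surface receptor of B cells that microglia can also express, measured 19.6, 25.9 and 9.41 CPM against at most 0.611 and had an adjusted p of 0.000764. In all, 7 of 20 B and plasma cell genes passed the filter and 4 of them were higher, which became 15 of 19 without shH2afy replicate 3 and 1 without any other single library. Immunoglobulin constant genes are close relatives, and their shared reads may have been divided among them.

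Other leukocytes were unequal. All 11 monocyte genes tested were higher, with a median of 5.60, although fewer passed without shH2afy replicate 1 (5) or shScramble replicates 1, 2 and 3 (6, 4 and 6). Plac8 went from 0.0679, 0.0618 and 0.533 CPM to 21.2, 25.0 and 6.99, and the chemokine receptor Ccr2 from 0.0679, 0.185 and 0.533 to 15.5, 17.3 and 9.70. Neutrophils left little trace. Ly6g and the granule protease gene Elane had 0 counts in all 6 libraries, which allows up to 3 counts in each, and S100a8 had 3, 14 and 9 counts in shH2afy mice. Only Csf3r and one other of 12 neutrophil genes passed the filter, and Csf3r, which is not confined to neutrophils, was higher (log2 fold change 3.40). Of 6 border macrophage genes tested, 4 were higher, and this number was 1 or 2 without any one library other than shH2afy replicate 3. Of 9 dendritic cell genes 5 were higher, with 0 or 1 without any one of the same 5 libraries. The defining dendritic gene Flt3 overlapped between groups.

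Among genes of microglia, the resident phagocytes, those of the resting state rose by smaller amounts than those of the disease-associated state. Of 16 genes of the resting state, 13 were higher with a median of 1.73. Gpr34, a lipid receptor, measured 14.3, 10.5 and 12.8 CPM in shScramble and 37.7, 38.9 and 36.7 in shH2afy mice (log2 fold change 1.59, SE 0.14, adjusted p = 0.00034). P2ry12, the receptor by which microglia sense ATP, and Siglech, a lectin of microglia, had log2 fold changes of 1.15 and 1.51. These 3 genes were named for their small range over the shH2afy mice. Over the whole list, replicate 3 was nearest to the controls for 12 of 16 genes, and the summed level was 3977, 4043 and 2995 CPM in shH2afy and 1292 to 1739 in shScramble mice. Of 20 genes of the disease-associated state, 16 were higher with a median of 2.91, and 12 without shScramble replicate 3. Those higher included the lipid-sensing receptor Trem2 (2.99) and Clec7a (6.48), a receptor of phagocytes. Of 15 Fc receptor and phagocyte oxidase genes 14 were higher, with a median of 4.11, and 11 without shScramble replicate 3. Cybb, the catalytic chain of the oxidase, went from 0.679, 0.247 and 0.852 CPM to 96.6, 137 and 16.6, and was as uneven as the MHC genes.

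In astrocytes the genes of reactivity rose, and those of resting work went both ways. All 13 pan-reactive genes were higher, with a median of 4.27, and all 13 remained so without any single library. S1pr3, a lipid receptor, went from 7.74, 7.05 and 6.82 CPM to 149, 157 and 111, and Aspg from 2.24, 1.05 and 1.28 to 22.3, 29.3 and 27.0. Of 11 genes called A1, after astrocytes of inflammation, 9 were higher with a median of 4.32, and 6 without shScramble replicate 3. Several of the 9 are MHC class I or GTPase genes counted above. Of 11 genes called A2, after ischaemia, 9 were higher with a median of 2.55, and 5 without shH2afy replicate 1. Tgm1, a transglutaminase, reached 66.3, 57.3 and 39.7 CPM from at most 0.747. Members of both lists were higher in the same libraries.

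Of 19 genes of resting astrocytes, 3 were higher and 2 lower in edgeR, and 8 higher and 4 lower in DESeq2, with a median of 0.16. In 8 genes the groups did not overlap with shH2afy higher, and in 6 with shH2afy lower. Over all genes tested, the groups did not overlap in 48.8%, in either direction. Aqp4, the water channel of astrocyte end feet, measured 121, 128 and 131 CPM in shScramble and 487, 477 and 438 in shH2afy mice (log2 fold change 1.89, SE 0.11, adjusted p = 0.000105). Glul, which turns glutamate into glutamine, fell from 1527, 1428 and 1487 CPM to 832, 965 and 871 (log2 fold change -0.74, SE 0.13, adjusted p = 0.00495). The other gene that fell was the glycolytic enzyme Aldoc (-0.72), and the others that rose were Aldh1l1 (0.92) and Sox9 (0.97). Without shH2afy replicate 1, 1 was higher, without shScramble replicate 2 also 1, and without shH2afy replicate 3, 6. Neither fall passed when any library other than shH2afy replicate 3 was left out.

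Myelin genes gave no common direction. Of 16 oligodendrocyte genes 1 was higher, the iron carrier Trf, with 18.7, 12.1 and 19.6 CPM in shScramble and 63.4, 78.8 and 44.8 in shH2afy mice, and the median was -0.05. Mbp, the myelin basic protein, overlapped between groups. Of 10 genes of oligodendrocyte precursors all were positive and 3 were higher, with a median of 0.72. The 3 were Vcan (log2 fold change 1.49), a matrix proteoglycan, Lhfpl3 (1.45) and Gpr17 (0.86), a receptor of differentiating cells. The number was 2 without shH2afy replicate 1 and 6 without shH2afy replicate 3. Gpr17 no longer passed without shH2afy replicate 1 or any one shScramble library.

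Among genes of vessels, those of leukocyte adhesion and of matrix rose. Of 9 leukocyte adhesion genes 6 were higher with a median of 2.47, and 4 without shH2afy replicate 1. Icam1, on which leukocytes anchor, went from 2.31, 1.61 and 0.639 CPM to 52.3, 59.1 and 23.3, and Vcam1 from 27.7, 20.6 and 28.0 to 175, 192 and 86.6. Of 16 endothelial genes 2 were higher, the lipid transporter Mfsd2a (1.30) and the junction protein Tjp1 (0.51), with a median of 0.33. Without shH2afy replicate 1 the number was 0, and without any other single library it was 1. Of 9 mural genes tested 0 passed in edgeR, with 1 in DESeq2. Of 18 fibroblast and matrix genes 7 were higher with a median of 1.17, and 4 without shH2afy replicate 1 or any one shScramble library. Lox, which crosslinks collagen, and tenascin C (Tnc) had log2 fold changes of 5.15 and 3.12. Ccn5, a matrix-associated growth regulator in none of the lists, measured 0.136, 0.0618 and 0.107 CPM in shScramble and 36.8, 45.4 and 27.5 in shH2afy mice.

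Markers of neighbouring tissue were set beside these results. Of 10 choroid plexus and ependyma genes and of 6 red cell genes, 0 passed in edgeR in either direction, and the same 0 in DESeq2. Of 10 genes of thalamus and cortex, with a median of -0.46, 1 was lower in edgeR, and 4 were lower and 1 higher in DESeq2. The edgeR number was 0 without shH2afy replicate 1 or 2 or shScramble replicate 2, and 2 without shScramble replicate 1. The cortical gene Tbr1 measured 34.5, 121 and 68.0 CPM in shScramble and 22.3, 21.8 and 34.1 in shH2afy mice (log2 fold change -1.52, adjusted p = 0.0305 in edgeR and 0.000459 in DESeq2). Prox1, which marks dentate granule neurons, ranged from 20.4 to 126 CPM over shScramble and from 44.1 to 197 over shH2afy mice. Both genes ranged widely within a group, and the summed level of the thalamus and cortex list was 520 to 614 CPM in shScramble and 386 to 417 in shH2afy mice. These values moved with the neuronal falls below, and the part of dissection in the neuronal results was not tested.

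Neuronal genes fell by modest amounts. Of 284 distinct neuronal genes tested, 53 (18.7%) were lower and 3 higher, 228 were negative and the median log2 fold change was -0.62. The number lower was 10, 30 and 85 without shH2afy replicates 1, 2 and 3, and 23, 23 and 19 without shScramble replicates 1, 2 and 3. DESeq2 gave 124. Tubb3, a tubulin of neurons, measured 248, 281 and 301 CPM in shScramble and 118, 158 and 111 in shH2afy mice (log2 fold change -1.10, SE 0.16, adjusted p = 0.00251). Of 15 pan-neuronal genes all were negative and 5 passed, with a median of -0.71, and 0 to 3 passed without any one library other than shH2afy replicate 3. Rbfox3, the nuclear antigen by which neurons are counted, had 374, 410 and 301 CPM in shScramble and 206, 171 and 256 in shH2afy mice (adjusted p = 0.0166 in edgeR and 0.000543 in DESeq2).

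**Figure D2:**
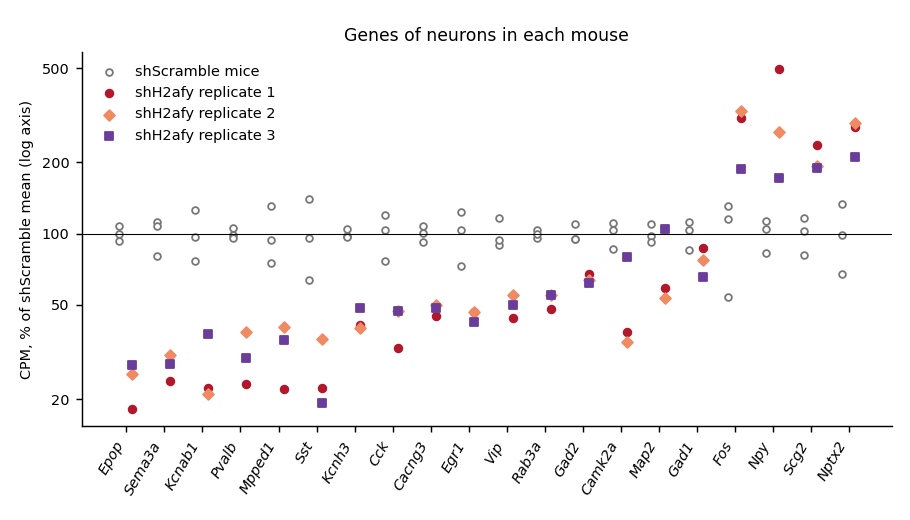
Level of 20 neuronal or chromatin genes in each library as percent of the shScramble mean (log axis; open circles, shScramble; filled circle, diamond and square, shH2afy replicates 1, 2 and 3). The lowest point was Epop in shH2afy replicate 1, and Fos, Npy, Scg2 and Nptx2 lay above the controls in each shH2afy mouse.

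By region, the median was most negative in markers of CA1. Of 14 genes of CA1 pyramidal neurons 2 passed, both lower, 13 were negative and the median was -1.07. The number was 0 without shH2afy replicate 1 or shScramble replicate 1 and 1 without shH2afy replicate 2 or shScramble replicate 3, and DESeq2 called 8. Fibcd1, a marker of CA1, had 406, 123 and 183 CPM in shScramble and 59.6, 55.7 and 85.4 in shH2afy mice. It did not pass in edgeR (adjusted p = 0.0155) and did in DESeq2 (adjusted p = 0.00586). Medians were -0.31 over 10 CA2 genes, 0.10 over 10 CA3 genes and 0.57 over 12 genes of dentate granule neurons, and whether the regions differ was not tested. List means of the shScramble mice alone ranged over 1.03 (CA1), 2.08 (CA2), 1.49 (CA3) and 2.52 (dentate) on the log2 scale. For CA2, CA3 and dentate this range exceeded the size of the median. Of the 32 CA2, CA3 and dentate genes only Glis3, a dentate transcription factor, passed, and it was higher (1.96). It did not pass without shH2afy replicate 1 or shScramble replicates 1 or 3.

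Among genes of inhibitory neuron identity, 2 transcription factors and an enzyme of GABA synthesis were among those that fell. Of 15 identity genes tested 6 were lower and 0 higher, with a median of -0.91, and 2 without shH2afy replicate 1 and 3 without shScramble replicate 2 or 3. Satb1, a transcription factor, measured 90.5, 154 and 116 CPM in shScramble and 37.6, 58.2 and 45.5 in shH2afy mice (log2 fold change -1.35, SE 0.23, adjusted p = 0.0045). Dlx1, another transcription factor, passed with a log2 fold change of -0.99. Of the 2 enzymes that make GABA, Gad2 passed (-0.64) and Gad1 did not (-0.38, adjusted p = 0.10). The mice differed little here, with list means of -0.61, -0.62 and -0.57 relative to shScramble in replicates 1, 2 and 3.

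Neuropeptides went both ways. Vip, of interneurons that inhibit other interneurons, fell from 22.6, 29.4 and 23.8 CPM to 11.1, 13.9 and 12.6 (log2 fold change -1.01, SE 0.15, adjusted p = 0.00294), and Cck from 429, 369 and 273 to 118, 168 and 168 (-1.24). Scg2, a secretory granule protein, rose from 304, 267 and 213 CPM to 619, 505 and 496 (1.05, SE 0.17, adjusted p = 0.00353). Npy, which restrains excitation, had 61.8, 57.5 and 45.5 CPM in shScramble and 273, 148 and 94.1 in shH2afy mice. It did not pass in edgeR (adjusted p = 0.0122) and did in DESeq2 (adjusted p = 2.11e-05). Over the 16 neuropeptides 1 was higher and 3 lower, and 5 were higher without shH2afy replicate 3. Scg2 no longer passed without shH2afy replicate 1 or 2 or shScramble replicate 2 or 3, and the falls numbered 0 without shH2afy replicate 1 and 1 without shScramble replicate 1.

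Receptors and channels fell together in sign, with few members passing. Of 12 GABA-A subunits all were negative and 2 passed. One of them, the subunit gene Gabra3, went from 84.6, 82.0 and 96.5 CPM to 25.6, 45.8 and 27.2 (log2 fold change -1.41, SE 0.23, adjusted p = 0.00345). Of 17 ionotropic glutamate receptor genes 15 were negative and 3 passed, Gria4 (-0.80), Grin1 (-0.80) and Grin3a (-0.86), while Gria1 and Gria2 overlapped between groups. Of 9 metabotropic glutamate and GABA-B receptor genes 2 passed, Gabbr1 (-0.85) and Grm3 (-0.65), with 0 or 1 without any one library other than shH2afy replicate 3. Of 9 sodium channel genes 3 passed, among them the auxiliary subunit Scn2b (-0.97). Of 18 calcium channel genes 5 passed. Cacng3, an auxiliary subunit related to those that carry AMPA receptors, measured 86.1, 92.1 and 79.4 CPM in shScramble and 38.4, 42.9 and 41.6 in shH2afy mice (log2 fold change -1.07, SE 0.10, adjusted p = 0.00045). Of 33 potassium channel genes 31 were negative and 7 passed, among them Kcnh3 with 142, 141 and 152 CPM against 59.4, 58.2 and 70.4. Without shH2afy replicate 3 the numbers lower were 6 (GABA-A), 5 (ionotropic glutamate), 5 (sodium), 8 (calcium) and 14 (potassium). Without shH2afy replicate 1 they were 0, 0, 0, 2 and 2, without shH2afy replicate 2 they were 2, 0, 3, 2 and 5, and without any one shScramble library at most 2, 1, 1, 3 and 3.

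At the synapse, all 21 genes of the vesicle cycle and all 18 of the postsynaptic density were negative, with medians of -0.63 and -0.83. Of the vesicle genes 6 passed, and 1 or 2 without any one library other than shH2afy replicate 3. Rab3a, a vesicle GTPase, went from 534, 579 and 557 CPM to 266, 306 and 307 (log2 fold change -0.93, SE 0.12, adjusted p = 0.00128), with the shH2afy mice within a narrow range. Of the postsynaptic genes 3 passed, and 14 did without shH2afy replicate 3 and 0 without any other single library. Dlgap3, a scaffold protein, went from 419, 359 and 439 CPM to 182, 187 and 248 (-0.98). Replicate 3 was the shH2afy mouse nearest to the controls for each of the 18 postsynaptic genes, and for 17 of the 21 vesicle genes.

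Genes induced by neuronal activity divided. Of 20, 1 was higher and 3 lower, with a median of -0.15. Egr1 went from 372, 309 and 219 CPM to 140, 140 and 127 (log2 fold change -1.15, SE 0.19, adjusted p = 0.00416), and Egr4 and Nr4a2 were also lower (-1.33 and -1.03). Nptx2, a secreted protein that clusters AMPA receptors, rose from 42.1, 57.3 and 29.0 CPM to 121, 126 and 90.4 (1.39, SE 0.25, adjusted p = 0.00541). Fos had 28.3, 24.9 and 11.7 CPM in shScramble and 66.6, 71.3 and 40.5 in shH2afy mice, without overlap. It did not pass in edgeR (adjusted p = 0.0156) and did in DESeq2 (adjusted p = 0.000243). The falls numbered 0 without shH2afy replicate 1 and 1 without any one shScramble library, and Nptx2 no longer passed without shH2afy replicate 1 or 2 or shScramble replicate 1 or 3. Outside the lists, the receptor genes Gpr83, Chrm4 and Htr1b were among the 10 largest falls. Gpr83 went from 23.2, 22.9 and 41.4 CPM to 7.20, 7.11 and 8.63 (-1.93, SE 0.26, adjusted p = 0.00169), and the muscarinic receptor Chrm4 from 22.7, 21.4 and 33.3 to 6.15, 9.38 and 7.20 (-1.76).

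Of 24 chromatin genes 1 was higher and 2 lower. Epop, which joins Polycomb repressive complex 2, had a log2 fold change of -2.07 and Cbx7, of Polycomb repressive complex 1, of -0.61. Ezh2, the methyltransferase of the former, went from 3.94, 4.76 and 5.65 CPM to 12.8, 13.4 and 9.34 (1.32, SE 0.22, adjusted p = 0.00382), and was lost without any single library other than shH2afy replicate 3. Cbx7 was lost without shH2afy replicate 1 or any one shScramble library. Of the H2A variants 0 of 6 passed in edgeR and 0 in DESeq2.

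Genes of division and of cell death rose in all 3 mice. Of 22 cell cycle genes 15 were higher and 0 lower, with a median of 2.52, and 7 without shH2afy replicate 1 and 9 without shScramble replicate 2. Mki67, which marks dividing cells, went from 1.36, 2.22 and 3.94 CPM to 26.5, 22.6 and 22.6 (log2 fold change 3.30, SE 0.33, adjusted p = 0.000525). Of 18 p53 target and cell death genes 13 were higher with a median of 1.95, and 8 without shH2afy replicate 1 or shScramble replicate 3. Eda2r, a death receptor induced by p53, measured 0.340, 0.494 and 0.533 CPM in shScramble and 6.78, 6.03 and 6.27 in shH2afy mice, and was named for its small range. Casp8, which starts receptor-driven death, had a log2 fold change of 3.46.

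Among genes that rose, replicate 3 most often lay nearest to the controls, and among genes that fell about as often as over all genes. Replicate 3 was nearest to the shScramble mean for 51.8% of all genes tested, for 1492 (88.2%) of the genes called higher and for 109 (56.2%) of those called lower. The median log2 difference from the shScramble mean, over genes called higher, was 2.59, 2.65 and 1.95 in replicates 1, 2 and 3, and over genes called lower -1.38, -1.15 and -1.05. Of 1691 genes called higher, 1607, 1610 and 1288 exceeded the highest control more than 2-fold in replicates 1, 2 and 3, and 1264 did in all 3 mice. Of 194 genes called lower, 25 lay more than 2-fold under the lowest control in all 3. Of 63 lists, replicate 3 was nearest to the controls in 49, replicate 2 in 9 and replicate 1 in 5. All 29 lists with a median above 1 had replicate 3 as the lowest shH2afy mouse, and their distance from the others differed. The mean shift of the T cell list was 3.60, 4.22 and 1.43 on the log2 scale, a range of 2.79, with -0.42, -0.41 and 0.83 in shScramble replicates 1 to 3, and that of MHC class II 5.29, 5.72 and 3.32. For virus sensors it was 3.78, 3.78 and 3.17, for pan-reactive astrocytes 4.91, 5.04 and 4.38 and for homeostatic microglia 1.85, 1.82 and 1.58. Over all genes, the common coefficient of biological variation was 0.207 in shH2afy and 0.199 in shScramble mice.

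**Figure D3:**
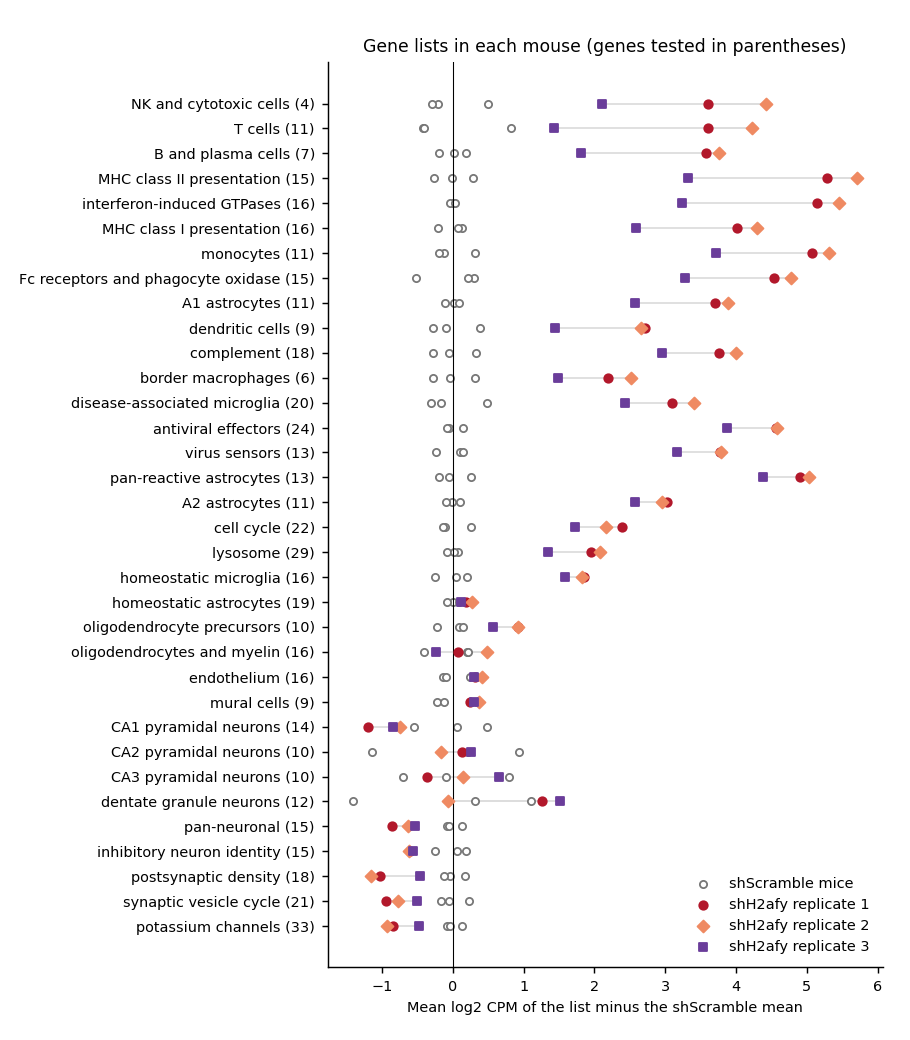
Mean log2 CPM of each of 34 lists in each library, relative to the shScramble mean (open circles, shScramble; filled circle, diamond and square, shH2afy replicates 1, 2 and 3). The shH2afy mice diverged most in the T cell, NK, MHC class II and GTPase lists, where replicate 3 lay lowest, and little in inhibitory identity.

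The changes were compared with mH2A1 on chromatin, from ChIP-seq of other, untrained mice. A gene was counted as marked when its start lay in a domain of at least 2 of 3 libraries of the 30 min set, whose domains covered 369, 416 and 409 Mb. Of genes called higher, 661 of 1690 with a mapped start (39.1%) were marked, of those called lower 54 of 194 (27.8%) and of the others 1983 of 14289 (13.9%). Marking was more common in genes of low expression, so each share was also taken within 3 equal classes of shScramble level. In the lowest class 44.8% of higher, 42.1% of lower (8 of 19 genes) and 25.0% of other genes were marked, in the middle class 25.6, 37.3 and 11.2%, and in the highest 18.3, 21.8 and 7.50%. Within each class, genes that changed in either direction had a larger share marked than the others, and the difference was not tested. With domains in all 3 libraries the shares were 22.0, 12.4 and 6.56%. Of all genes tested with a mapped start 16.7% were marked, and the share differed widely between lists of either direction. Among lists that rose, 13 of 24 antiviral genes were marked, against 2 of 22 cell cycle, 4 of 29 lysosome and 2 of 16 interferon signalling genes. Among neuronal lists, 9 of 13 interneuron markers and 9 of 16 neuropeptides were marked, against 4 of 15 pan-neuronal and 0 of 12 GABA-A subunit genes, and of choroid plexus genes, none of which passed, 7 of 10 were.

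For the response element, a gene was counted once, when any of its promoters held it. The element was found in promoters of 124 of 1287 genes called higher (9.63%), of 9 of 137 called lower (6.57%) and of 325 of 10541 not called (3.08%). It was present in 9 of 10 GTPase promoters in the table, in 10 of 19 antiviral ones and in 4 of 14 of MHC class I, and, among lists that fell or went both ways, in 3 of 22 potassium channel, 3 of 15 immediate early and 2 of 13 postsynaptic promoters. It was found in 0 of 8 monocyte, 0 of 11 homeostatic microglia and 0 of 8 pan-neuronal promoters, where a share such as that over all promoters would give few or none. A gamma-activated site, searched for as TTC and GAA separated by any 3 bases, was held in promoters of 9.48% of genes called higher and 7.97% of those not called. A cAMP response element, TGACGTCA, was held by 1.63 and 3.60%. Matches are letters in a window and do not show binding.

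**Figure D4:**
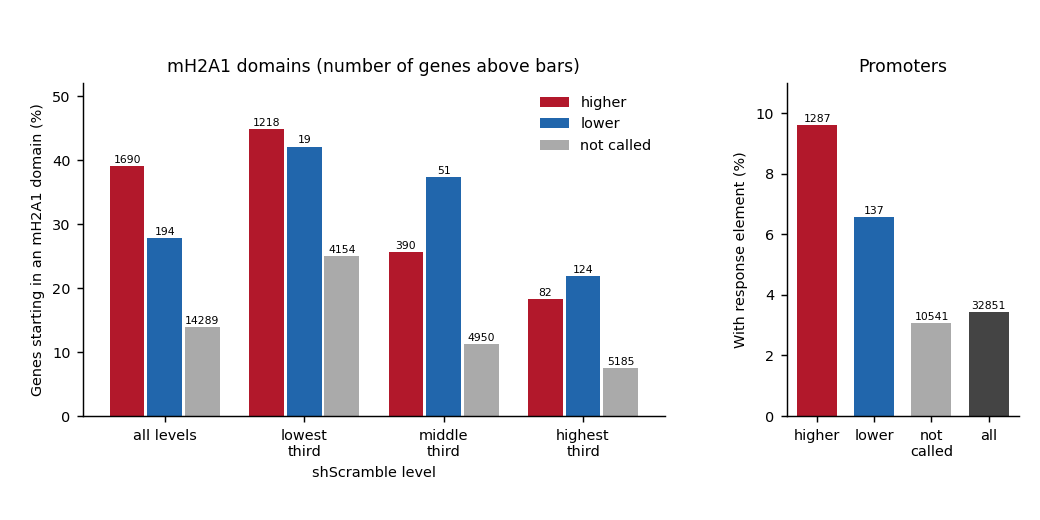
Left, percent of genes whose start lay in an mH2A1 domain, for genes called higher, lower or neither, by class of shScramble level (bars from 0). Right, percent holding an interferon-stimulated response element, for promoters of genes called higher, lower or neither, counted by gene, and for all promoters. In each class the share marked was larger for genes called higher or lower than for the others. The element stood in promoters of 9.63% of genes called higher.

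A second set of mice allowed the programs to be set beside other libraries. The training experiment held 3 untrained libraries labelled mH2A1 shRNA and 3 labelled scrambled shRNA, sequenced elsewhere after depletion of ribosomal RNA and counted over whole transcripts with introns. No sample is shared, and each experiment was tested within its own table. Its target gene (H2afy, there named Macroh2a1) went against the label, with 83.0, 82.0 and 79.0 CPM in the scrambled and 88.0, 89.8 and 88.9 in the libraries labelled mH2A1 shRNA (log2 fold change 0.13, SE 0.05, adjusted p = 0.0868), so its directions are those of the labels. Of 15799 genes tested there, 1942 were higher and 221 lower in the libraries labelled mH2A1 shRNA, past an adjusted p of 0.01 and a fold of 2. Without the fold threshold these were 19.5 and 12.1% of genes.

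Of 1609 genes called higher on depletion and tested in both, 1604 had the same sign in the libraries labelled mH2A1 shRNA and 1260 were called higher, which is 78.3% of the depletion set and 77.2% of the 1632 genes of the other. Their median log2 fold change was 2.53 on depletion and 1.73 in the other experiment. Of 170 genes called lower, 162 had the same sign and 29 were called lower, which is 17.1% of the one set and 13.7% of the 211 genes of the other. All 23 antiviral genes tested there were higher, with a median of 2.00 against 4.58 for the same genes on depletion. For pan-neuronal genes the medians were -0.58 in the libraries labelled mH2A1 shRNA and -0.71 on depletion, for CA1 genes -1.21 and -1.07, and for inhibitory identity genes -0.46 and -0.91. CA3 and dentate lists were negative in the former (-0.80 and -0.22) and positive on depletion (0.10 and 0.57). On depletion the list means of the shScramble mice alone ranged over 1.49 (CA3) and 2.52 (dentate), more than the size of these medians. In a test of the difference itself, 33 of 16060 genes (0.205%) differed between the experiments, of which 3 had the larger response in the libraries labelled mH2A1 shRNA. DESeq2 gave 297, and leaving out one library gave from 2 (shScramble replicate 3) to 337 (shH2afy replicate 3).

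**Figure D5:**
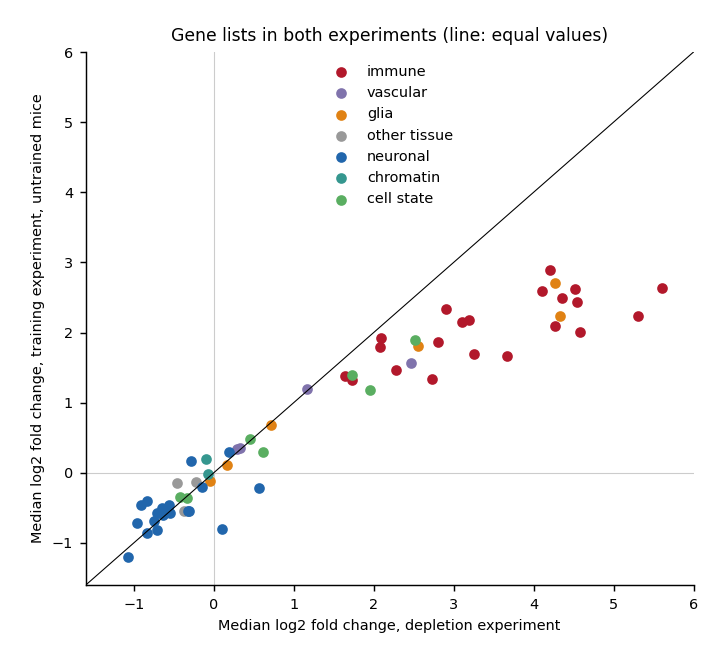
Median log2 fold change of each list on depletion (x axis) and between untrained libraries labelled mH2A1 shRNA and scrambled (y axis), with the line of equality. The immune lists with medians above 2 lay under the line, with antiviral genes at 4.58 and 2.00, and most neuronal lists lay near it, apart from the CA3 and dentate lists.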

How the data were processed

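Raw counts per gene were deposited by the authors (Trim Galore 0.4.5, Cutadapt 2.6, STAR to mm10, featureCounts), and their strand setting is not given in the sources used here. Of 55536 genes, 16179 passed filterByExpr (count 10, total 15) and were tested with edgeR 4.0.16 (quasi-likelihood, TMM, Benjamini-Hochberg; R 4.3.3), with DESeq2 1.42.0 as an alternative. Domains came with the false discovery rates (q-values) that the authors' caller gave, each under 0.05. Gene starts came from the GENCODE annotation and promoters from RefSeq (GRCm38.p6). Samples were grouped by GEO labels. The labels give each library its own mouse, so p-values measure the spread between mice.

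The gene lists and members were chosen with earlier results of these data known. Named genes were the first 3 of each list, up to 6 more by smallest adjusted p, H2afy, H2afy2, and outside the lists the 10 largest rises, falls and ranges over shH2afy mice. Within the lists the 10 called higher genes of smallest range were added. Named after their values were seen were Cd3d, Cd4, Cgas, Clec7a, Cx3cl1, Elane, Ifnar1, Ifnb1, Ifng, Ifngr2, Igkc, Il1rn, Irf1 and Tmem173. The test was checked on simulated counts. Alternatives were another scaling, no filter, a replicate block, other thresholds and domain sets, and leaving out each library. Precision of a single count is limited by depth (9954415 to 16988596 counts a library), and intervals from counting alone were not used. Some genes of the lists are counted in them and are not reported here by name.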

Additional observations from a re-analysis of the deposited data

Results flagged for a closer look

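The response in the libraries labelled mH2A1 shRNA, against their scrambled controls, was set against the response on depletion in a test of the difference itself, with the labels of the training experiment going against their target gene. Of 16060 genes 33 differed (297 in DESeq2, and 2 to 337 with one library left out, the lowest without shScramble replicate 3 and the highest without shH2afy replicate 3), of which 3 had the larger response in the training experiment and 30 the smaller, all 30 being called higher on depletion. Differences are given as log2 fold change in the training experiment minus that on depletion (edgeR, adjusted p under 0.01).

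Among the smaller responses, 13 were members of the lists and 7 of these were antiviral effectors. Oasl2 differed by -4.43 (6.75 on depletion, 2.25 in the training experiment), Ifit1 by -3.86 (5.87 and 1.94), Irf7 by -3.91 (6.81 and 2.83) and Ifit3 by -2.91 (4.99 and 2.00). Isg15 differed by -3.71, Ifi204 by -5.08, Gbp3 by -2.87, Rsad2 by -3.61 and Ccl12 by -3.61. Dhx58 differed by -2.69, Usp18 by -3.60, Oas1a by -3.29 and Trim25 by -1.71. Each of these 13 genes was higher in both experiments. The experiments differ in kit, in counting over introns and in place of sequencing, and the part of these in the differences was not tested.

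Of the 3 with the larger response, Tmem267 differed by 2.42 and Igf2bp3 by 3.67, with log2 fold changes on depletion of -0.05 and -0.20 against 2.30 and 3.41. Casz1 differed by 2.35 (-1.31 on depletion, without passing, and 0.95 in the training experiment).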

How the results depend on the processing

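The number of genes called on depletion was 1885, 1146 with a replicate block and 947 to 2364 with one library left out. DESeq2 called 2355 and kept 1847 of the 1885. Deviations of same-numbered shH2afy and shScramble libraries from their group means correlated at -0.128, -0.29 and -0.139, and those of other pairs at -0.0654 to 0.216. With 3 libraries a group these values cannot show whether same-numbered libraries were handled together. In the training experiment the block gave 1923 calls in place of 2163. The number of genes that differed between the experiments was 33, 22 with the block and 297 in DESeq2. With a library left out it was 2 to 337 (337 without shH2afy replicate 3, 2 without shScramble replicate 3). This count thus varied widely with the libraries included. Of genes called higher, 34.7% started in a domain of at least 3 of 5 libraries of the 6 h set and 22.0% in one of all 3 libraries of the 30 min set, in place of 39.1%. H2afy passed the threshold when all 9 libraries of the depletion experiment shared one estimate of the spread (-0.43). Of 117 named genes tested, none changed direction under any alternative run. Those that no longer passed numbered 1 with another scaling, 36 with the block and 11 to 42 with one library left out, most without shH2afy replicate 1. The counts of list members without the filter on low counts were added after seeing the data. DESeq2 moved 37 of 126 list counts by over 1.5 times, or to or from 0, and no filter 40. Few T, NK and B cell genes passed the filter (11 of 19, 4 of 11 and 7 of 20). The causes of these differences were not tested.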

Other observations

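Programs of cell stress and metabolism also differed. Of 15 genes of the unfolded protein response 4 were higher, with a median log2 fold change of 0.78. Atf3, a stress-induced transcription factor, went from 1.22, 1.17 and 0.639 CPM in shScramble to 52.9, 50.6 and 35.1 in shH2afy mice, and the chaperone gene Hspa5 from 238, 237 and 242 to 477, 443 and 341. The number was 9 without shH2afy replicate 3 and 2 without shH2afy replicate 1 or any one shScramble library. Of 29 lysosomal genes 21 were higher with a median of 1.73, among them the protease Ctsd (3.06) and the glycosidase Gusb (2.51). The number was 15 without shScramble replicate 3 and 25 without shH2afy replicate 3. Of 15 genes of oxidative stress and iron 4 were higher, among them the haem-degrading enzyme Hmox1 (3.35), and the mitochondrial superoxide dismutase Sod2 was lower (-0.58). The rises numbered 1 or 2 without any one library other than shH2afy replicate 3, and Sod2 no longer passed without any single library.

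Genes of energy and lipid supply were mostly negative. All 18 nuclear genes of the respiratory chain were negative with a median of -0.42, and 1, Ndufv1, passed. It did not pass without shH2afy replicate 1 or any one shScramble library. All 9 mitochondrially encoded genes were negative with a median of -0.86, and mt-Nd1 and mt-Nd2 passed, neither of them without any single library. Of 17 genes of cholesterol synthesis 1 was lower, the regulator Srebf2 (-0.85), with 3 without shH2afy replicate 3 and 0 without shH2afy replicate 1 or 2 or shScramble replicate 2.

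In the remaining neuronal lists, 2 of 13 calcium buffers and markers of interneurons were lower (median -0.83), with 1 without shH2afy replicate 1 and 4 without shH2afy replicate 3. Of 5 genes of HCN channels 0 passed in edgeR and 2 were lower in DESeq2. Of 24 perineuronal and guidance genes 1 was lower, the repellent Sema3a, which went from 13.0, 18.1 and 17.5 CPM to 3.84, 4.96 and 4.56 (log2 fold change -1.86, SE 0.19, adjusted p = 0.000599). The number was 2 without shH2afy replicate 3 or shScramble replicate 1.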
